A study of Mus musculus with 41 samples.

Results

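Hardy fraction D was compared with Hardy fraction C, 2 sorted stages of B cell development in C57BL/6 mice, over all probe sets that carry 1 gene symbol. The comparison used 5 arrays of C and 5 of D, 10 of the 41 arrays of a series that runs from the population labelled CLP through fractions A to F. All arrays, C and D alike, came from mice wild type for Pax5, the gene of the factor that fixes B lineage identity. Total RNA of flow-sorted cells was amplified and hybridised to Affymetrix mouse arrays, and each value is a MAS5 signal, a linear intensity. Of 45101 probe sets, 34945 named 1 gene and together covered 18193 genes. The labels give no gate, tissue, sex or age and do not say whether arrays came from separate animals or pools. The p-values therefore weigh each difference against the spread among arrays of the same fraction, a spread that may be purely technical. In sorted bulk samples, fewer cells of a type and less RNA per cell cannot be told apart.

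In the Hardy scheme, fraction C holds early precursors that carry CD43 and BP-1 on their surface, and fraction D holds small pre-B cells that have lost CD43 and do not yet show surface IgM. Between these stages a cell that has rearranged its heavy chain gene tests it in the pre-B cell receptor, a complex of that chain with the surrogate light chains λ5 and VpreB. It then divides in response to interleukin 7, leaves the cycle, shuts down the surrogate light chain and rearranges its κ and λ light chain genes with the RAG recombinase.

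Differences are given as D minus C in log2(signal + 32), with their standard error (SE) and 5 arrays in each fraction, so that 1 unit is a factor of 2 and low signals give understated differences. A gene with several probe sets is given by 1 representative probe set. Genes are named as called higher or lower where the p-value of the limma test, adjusted by Benjamini-Hochberg over all 34945 probe sets, was under 0.05. Of the 18193 genes, 2192 (12.0%) were called higher in D and 3065 (16.8%) lower, 28.9% in either direction (28.1% of probe sets), and the median difference of all genes was 0.02. The falls were larger: 193 genes fell by over 2 units and 27 rose by as much. In D, all 5 arrays lay above all 5 of C for 1505 genes (8.27%) and below them for 2144 (11.8%). In a fit that took its spread from all 41 arrays, 852 genes were called higher and 1451 lower, and 2291 of those 2303 genes were also called with 10 arrays. Among genes described here, that fit also left Xrcc6, Hmgb2, Ikzf2, Smc4, Fanca, Suv39h2, Crebbp, Slc2a1, Slc16a1, Idi1, S1pr1, Bcl2l11, S100a9, Cd247 and Slc4a1 without a call, and others are given beside their values. Counts of calls in the lists fell in the same fit, for example to 9 higher and 5 lower among transcription factors, 8 lower in glycolysis, 4 lower in cholesterol synthesis and 9 higher among immediate early genes.

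The arrays differed in ways the labels do not give. C arrays 1 and 2 stood apart from C arrays 3 to 5: their summed signal over 43 mitosis genes was 178204 and 178156, against 84299 to 103745 on the other 3. C arrays 1 and 2 also had the lowest C signals of Rag1 and Rag2 and the highest of the ribosome biogenesis genes Nolc1 and Fbl. Results that turn on them are given with and without them, and without them 9.52% of genes were called higher and 14.9% lower. C array 3 had the highest median signal of the 10 and correlated least with its own group (r = 0.969 over probe sets, against up to 0.983), and C array 1 carried by far the highest signals of the plasma cell genes Jchain and Igha. The 3′ to 5′ signal ratio of the Gapdh control probe sets, a sign of RNA quality, was 3.80 to 6.73 in C and 5.11 to 6.04 in D.

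**Figure D1:**
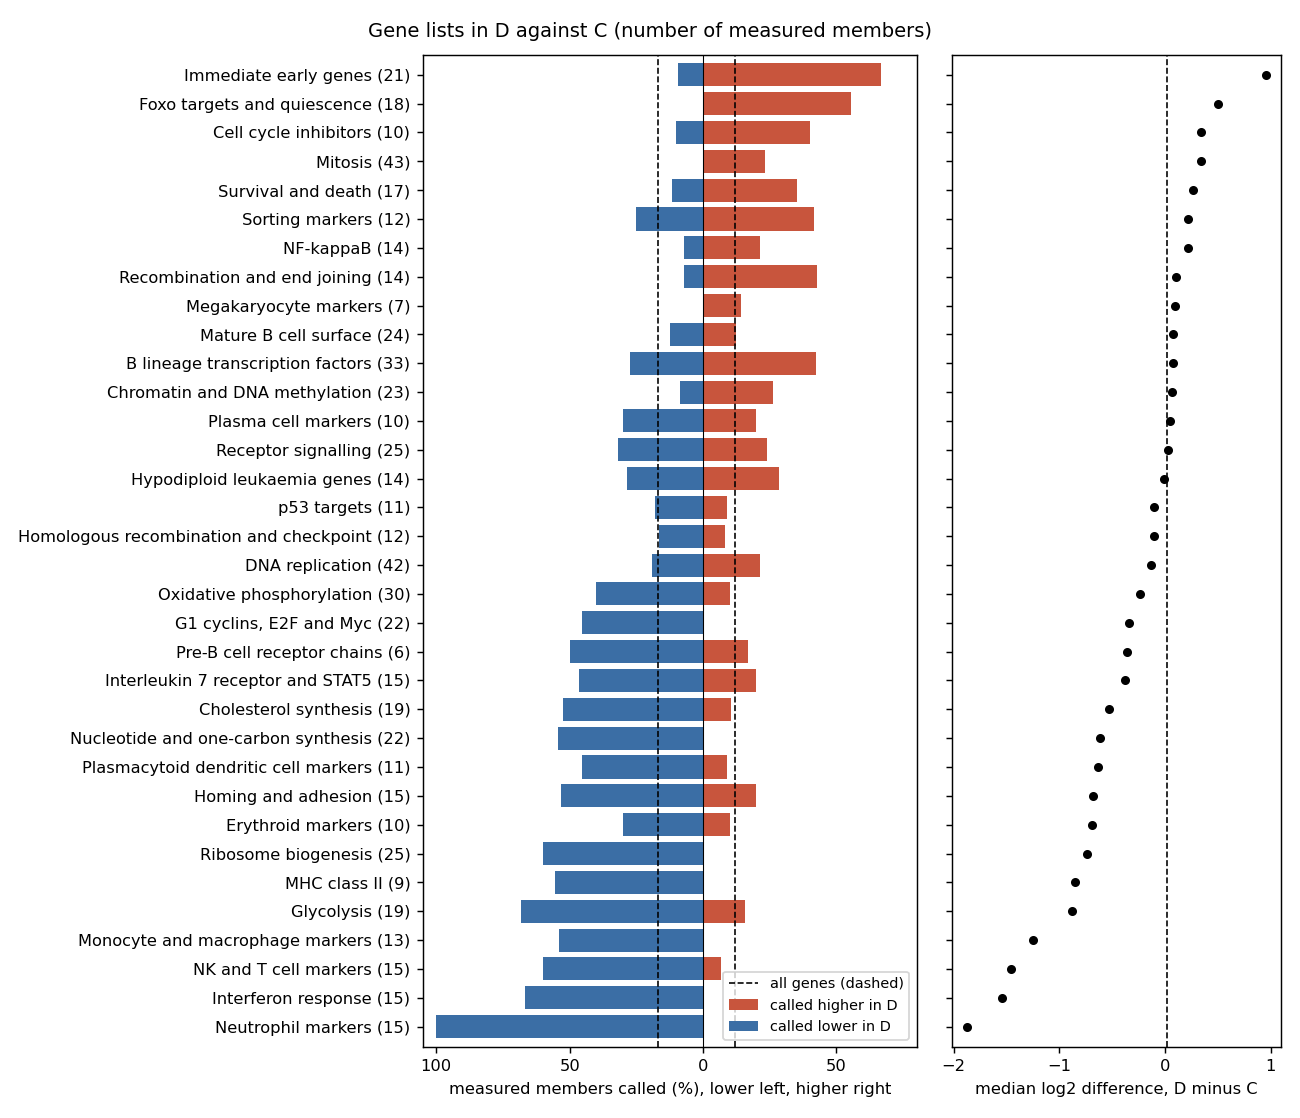
Share of the measured members of each gene list called higher (right) or lower (left) in D, in percent, and the median log2 difference of each list. Dashed lines mark the same values over all genes, 12.0% higher, 16.8% lower and a median of 0.02, and immediate early and quiescence genes lie at the top and interferon response and neutrophil genes at the bottom.

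The genes of BP-1 and CD43, which define the fractions in the Hardy scheme, were lower in D. Where cells are sorted on these proteins, that direction is largely set beforehand and is no test of the scheme. Enpep encodes BP-1, the aminopeptidase that opens fraction C, and its signals were 1178, 1231, 2093, 2849 and 2727 in C and 492, 245, 262, 203 and 196 in D. Every D array lay below every C array, and the difference was -2.69 ± 0.27 (SE), adjusted p = 1.13e-06. Spn, which encodes CD43, had signals of 9021, 9044, 8579, 10691 and 8271 in C and 4483, 5396, 4277, 4661 and 5456 in D. It also separated the fractions without overlap and fell by 0.91 ± 0.10 (SE), adjusted p = 6.18e-06.

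The genes of the surface proteins CD25 and CD2 rose. Il2ra, the CD25 chain of the interleukin 2 receptor and a usual marker of small pre-B cells, had signals of 763, 766, 959, 913 and 1267 in C and 1295, 1794, 1756, 2382 and 2108 in D. The lowest D array was just above the highest C array, and the difference was 0.97 ± 0.17 (SE), adjusted p = 3.99e-04 (adjusted p = 0.14 with the spread of all 41 arrays). A further probe set of Il2ra rose by 2.37. Cd2, an adhesion receptor, rose by 1.48 ± 0.21 (SE), adjusted p = 3.97e-05, from 786 ± 242 in C to 2209 ± 481 in D (mean ± SD). Kit, the stem cell factor receptor of early precursors, was low in both and fell by 1.01 ± 0.25 (SE), adjusted p = 0.0059, with overlapping arrays (adjusted p = 0.198 with the spread of all 41 arrays). Among 12 measured sorting markers 5 were called higher and 3 lower, against 12.0% higher and 16.8% lower of all genes. Cd24a, among those called higher, gave 0.04 (adjusted p = 0.687) after quantile normalisation. With the spread of all 41 arrays its adjusted p was 0.404. Cd93, the AA4.1 antigen of both stages, did not pass (0.08, adjusted p = 0.674).

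The chains of the pre-B cell receptor did not move together. Igll1, which encodes λ5, had signals of 10587, 10578, 12027, 15377 and 13600 in C and 5074, 3337, 3643, 1237 and 2277 in D. The ranges did not overlap, and it fell by 2.12 ± 0.29 (SE), adjusted p = 1.40e-04. This probe set is of a kind whose probes can match related sequences, and the other Igll1 probe set, with mean signals of 2141 in C and 2046 in D, gave -0.02. Vpreb1, the partner of λ5, stayed high, at 13823, 9897, 13725, 17637 and 14322 in C and 14348, 11347, 12209, 9968 and 12627 in D. These arrays overlapped and the difference was -0.18 ± 0.13 (SE), adjusted p = 0.322; without C arrays 1 and 2 it was -0.33, adjusted p = 0.0433, and after quantile normalisation -0.37, adjusted p = 0.0262.

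The signalling chains that the pre-B and B cell receptors share went opposite ways. Cd79b rose by 0.47 ± 0.12 (SE), adjusted p = 0.0061, with signals of 6471, 5678, 6402, 8354 and 8019 in C and 8366, 9169.9, 9297, 9728 and 11580.4 in D. Cd79a fell by 0.59 ± 0.14 (SE), adjusted p = 0.00434, and its arrays overlapped, as did those of Vpreb3 (-0.53, adjusted p = 0.00842). With the spread of all 41 arrays none of these 3 was called, at adjusted p of 0.471, 0.492 and 0.453.

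The heavy chain constant region of IgM showed no called difference on the Ighm probe set with the highest signal, which gave 9284, 7268, 6025, 8755 and 6033 in C and 7941, 7326, 7616, 8096 and 9280.4 in D and a difference of 0.13, adjusted p = 0.503. Of the other Ighm probe sets, 5 gave 863 or more on C arrays 1, 3 and 4, at most 58.2 on C arrays 2 and 5 and at most 101 in D, and none of these was called. A further one, at 3582 on C array 1 and 171 to 954 on the other C arrays, was 6.90 to 36.7 in D and differed by -3.84, adjusted p = 0.000124, while another was called higher by 0.29, adjusted p = 0.0425. Averaged over its probe sets, Ighm gave -1.60 (adjusted p = 0.0239). Of 21 κ light chain probe sets 4 were called higher and none lower, against 12.9% higher and 15.2% lower of all probe sets. Of 3 λ probe sets, all of Iglv1, 3 were called higher. The κ rises were in the variable segments Igkv6-14 (1.65), Igkv5-39 (1.21), Igkv4-68 (0.99) and Igkv1-117 (0.59), and the largest Iglv1 rise was 2.91, from a mean of 81.7 to 662. Several were at low signals, with means of 48.8 in C and 157 in D for Igkv5-39, 59.6 and 142 for Igkv4-68 and 1.06 and 20.0 for Igkv1-117. Among the called light chain probe sets only that of Igkv4-68 and the Iglv1 one with the largest rise had arrays that did not overlap. The κ probe set with the highest signal, annotated to the whole locus, had mean signals of 12332 in C and 12149 in D. Probe sets of variable segments share sequence, so each may read several segments.

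Among recombination and end joining genes, 6 of 14 measured members were called higher and 1 lower, with 3 higher after quantile normalisation, 4 after median centring and 2 with the spread of all 41 arrays. Rag1, which encodes the catalytic subunit of the recombinase, had signals of 4089, 4318, 10219, 11423 and 9305 in C and 13176, 12698, 14047, 15270.4 and 15059 in D. All D arrays exceeded all C arrays, the C arrays fell into 2 low and 3 high, and the difference was 0.96 ± 0.26 (SE), adjusted p = 0.015. It was 0.45 (adjusted p = 0.00231) without C arrays 1 and 2, and 0.80 (adjusted p = 0.0649) after quantile normalisation. Rag2, its partner subunit, had signals of 1439, 1475, 4218, 3595 and 3367 in C and 2530.5, 2713, 2686, 2749 and 2639.9 in D. The 5 D arrays lay between the low and the high C arrays, and the difference was 0.06 (adjusted p = 0.894) with all arrays and -0.47 (adjusted p = 0.00501) without C arrays 1 and 2.

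Of the DNA polymerases that act at the joints of rearranged genes, Dntt fell and Polm rose. Dntt, the terminal transferase that adds bases without a template, had signals of 8684, 9972, 13460.1, 18483 and 15003 in C and 3566, 3509.6, 2106, 1898 and 2418 in D. It fell by 2.26 ± 0.20 (SE), adjusted p = 4.29e-07, with no overlap, and its other probe sets differed by -1.96 and -3.31. Polm, polymerase μ, rose from 324, 204, 424, 297 and 434 in C to 741, 873, 615, 809 and 864 in D, a difference of 1.17 ± 0.19 (SE), adjusted p = 1.93e-04 (adjusted p = 0.0967 with the spread of all 41 arrays). Lig4, the ligase that seals the joints, rose by 0.81 ± 0.15 (SE), adjusted p = 5.35e-04, from 2159 ± 572 in C to 3721 ± 141 in D (mean ± SD), also without overlap (adjusted p = 0.0899 with the spread of all 41 arrays).

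The remaining end joining factors gave smaller differences. Trp53bp1, which protects broken ends, rose by 0.56 (adjusted p = 0.00227) and Hmgb2, a cofactor of RAG cleavage, by 0.39 (adjusted p = 0.0086). After quantile normalisation Hmgb2 gave 0.19 (adjusted p = 0.19), and averaged over its probe sets Trp53bp1 gave 0.34 (adjusted p = 0.0854). Xrcc6, the Ku70 subunit, rose by 0.39 (adjusted p = 0.0398), a call lost without C array 1 or 2 or any single D array, and at 0.14 (adjusted p = 0.329) without C arrays 1 and 2. Xrcc4, Xrcc5, Nhej1, Prkdc, Atm and Poll did not pass, with differences of -0.62 to 0.11.

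**Figure D2:**
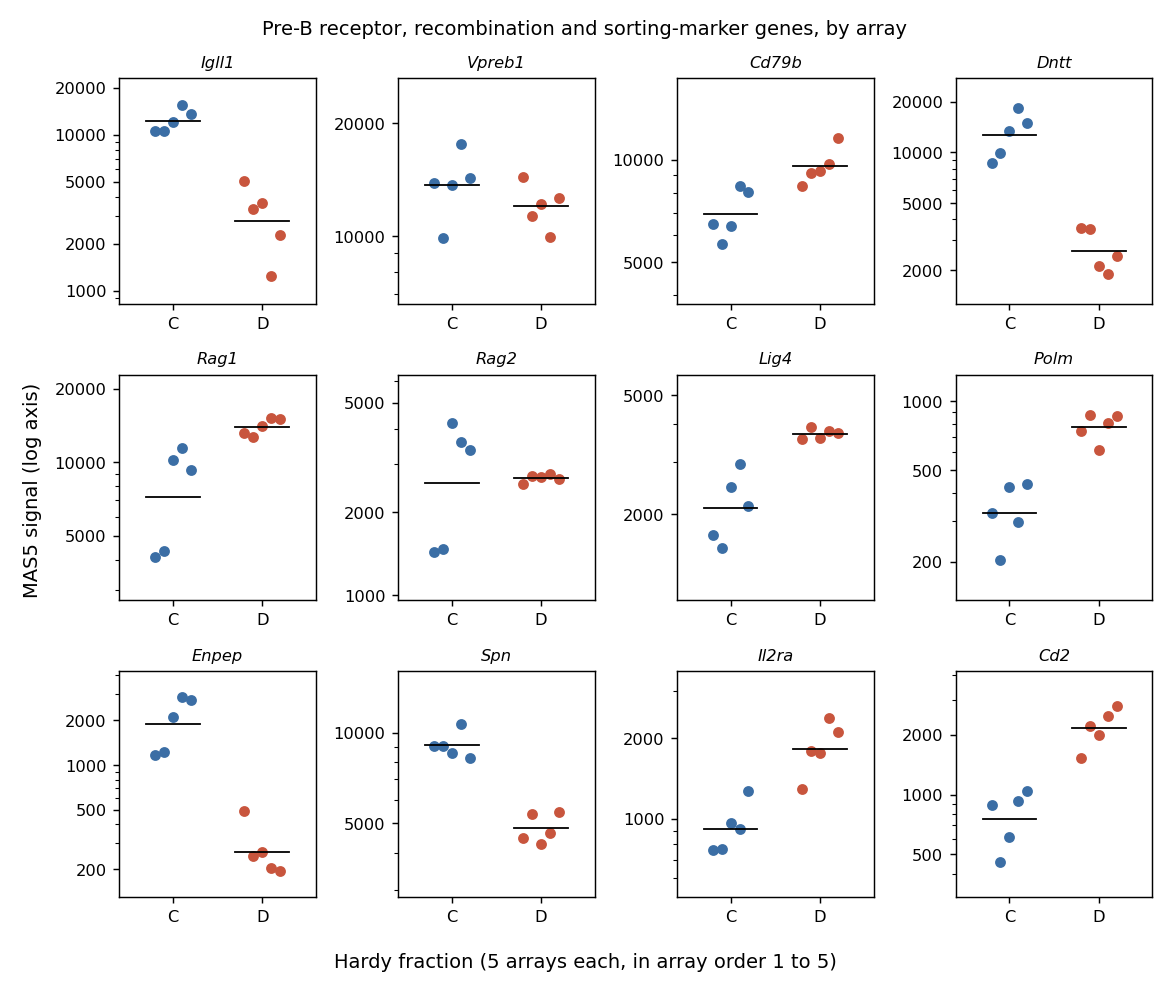
MAS5 signals (log axis) of 12 pre-B receptor, recombination and sorting-marker genes on the 5 arrays of C and the 5 of D. Each point is 1 array in array order and each bar the geometric mean. Igll1, Dntt, Enpep and Spn lie lower in D without overlap, and Rag1 and Rag2 are lowest on C arrays 1 and 2.

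Receptor signalling genes split: of 25 measured members 6 were called higher and 8 lower, with a median of 0.02. Syk, the kinase that first transmits the receptor signal, rose from 3769, 3086, 3401, 3859 and 4546 in C to 6891, 6778, 6624, 7508 and 9724 in D (1.00 ± 0.13 (SE), adjusted p = 1.56e-05), with no overlap. Malt1, a protease of the pathway to NF-κB, rose by 0.95 (adjusted p = 6.30e-04), and Blk, a Src family kinase, by 0.51 (adjusted p = 0.00385). Fyn, another Src family kinase, fell by 1.57 ± 0.15 (SE) (adjusted p = 8.07e-07), from 1169 ± 136 in C to 371 ± 46.1 in D (mean ± SD). Zap70, a relative of Syk that T cells also use, fell by 1.47 (adjusted p = 1.93e-04), and Plcg2, the phospholipase of the pathway, differed by -1.05 (adjusted p = 2.48e-06). Blnk, the adaptor that joins Syk to Plcg2, gave 0.00 (adjusted p = 0.984). The kinase gene Prkcb rose by 0.57 (adjusted p = 5.17e-04) on its representative probe set, while another of its probe sets was called lower, and the average was -0.064 (adjusted p = 0.777).

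Interleukin 7 holds precursors in division through its receptor and STAT5. Il7r, the receptor chain, rose from 7445, 7972, 8609, 8201 and 7963 in C to 14744, 12445, 12446, 13353 and 12437 in D. The D arrays were all higher, with a difference of 0.70 ± 0.09 (SE), adjusted p = 1.14e-05, and the other probe set rose by 1.25. Several genes known to be induced by this receptor fell. Of 15 measured genes of the axis 3 were called higher and 7 lower, with a median of -0.38.

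Socs2 and Cish, feedback inhibitors that STAT5 induces, differed by -2.08 ± 0.36 (SE) (adjusted p = 5.08e-04) and -1.82 ± 0.31 (SE) (adjusted p = 2.43e-04), both without overlap. Bcl2, which protects from apoptosis, had signals of 3094, 1789, 706, 1392 and 1906 in C and 346, 263, 397, 388 and 315 in D and fell by 2.14 ± 0.27 (SE), adjusted p = 1.45e-05. All 4 other Bcl2 probe sets were also called lower. Stat5a fell by 0.64 ± 0.13 (SE) (adjusted p = 0.00135), with no call in the fit of all 41 arrays (adjusted p = 0.0716), and Stat5b gave -0.26 (adjusted p = 0.26). Pim1, a kinase also induced by STAT5, went the other way and rose by 0.87 ± 0.18 (SE) (adjusted p = 0.00129). Mcl1, of the same list, was also called higher, by 0.36. It lost the call with the spread of all 41 arrays (adjusted p = 0.337) and without C arrays 1 and 2 (0.19, adjusted p = 0.223).

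Myc and Ccnd2 fell furthest among the regulators of growth and G1. Myc, a transcription factor that drives growth, had signals of 4190.3, 3376, 1961, 2251 and 1905 in C and 617, 322, 463, 203 and 334 in D. The highest D array was far below the lowest C array, and the difference was -2.73 ± 0.25 (SE), adjusted p = 6.29e-07. Ccnd2, cyclin D2, had signals of 5355, 4789, 4939.7, 5417 and 5266 in C and 1386, 753, 1719, 556 and 378 in D. It was nearly constant over C and spread widely in D, fell by 2.59 ± 0.30 (SE) (adjusted p = 1.83e-05), and was called lower on each of its 7 probe sets.

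Ccnd3, the cyclin D3 that pre-B cells need to expand, fell from 4351 ± 1034 in C to 1634 ± 401 in D (mean ± SD), a difference of -1.40 (adjusted p = 1.48e-05). Cdk6, the kinase partner of both, differed by -1.48 (adjusted p = 1.89e-05), Cdc25a, a phosphatase that starts S phase, by -1.35 (adjusted p = 1.25e-05), and Cdk2 by -0.83 (adjusted p = 0.00101), or -0.41 (adjusted p = 0.0784) averaged over its probe sets. In all, 10 of 22 genes of the G1, E2F and Myc list were called lower and 0 higher, by limma, and the list median was -0.34.

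Inhibitors of the cycle rose in part. Rb1, the retinoblastoma protein that holds E2F factors, had signals of 818, 1014, 1115, 868 and 861 in C and 2362, 1962, 2097, 2124 and 2152 in D. The fractions separated, and the difference was 1.17 ± 0.13 (SE), adjusted p = 3.45e-06. Cdkn1b, the p27 inhibitor, rose by 0.80 ± 0.21 (SE) (adjusted p = 0.00653) with overlap, and by 0.50 (adjusted p = 0.0617) without C arrays 1 and 2. The Rb1 relative Rbl1 rose by 0.57 (adjusted p = 0.00758), while Cdkn1a, the p21 inhibitor that p53 induces, fell by 1.00 ± 0.23 (SE) (adjusted p = 0.00311; adjusted p = 0.215 with the spread of all 41 arrays). Cdkn2c, the p18 inhibitor, gave 0.27 (adjusted p = 0.31) with all arrays and was called higher, by 0.60 (adjusted p = 0.00606), without C arrays 1 and 2. Averaged over its probe sets, Rbl1 gave 0.28 (adjusted p = 0.144).

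Targets of FOXO factors and other genes of quiescent cells were higher: 10 of 18 measured members were called higher and 0 lower, by limma, with a median of 0.51, and without C arrays 1 and 2 the counts were 7 and 2. Klf2, a factor of resting lymphocytes, had signals of 832, 440, 497, 694 and 1121 in C and 1701, 2574, 2357, 3514 and 3632 in D. No D array reached down to C, and the difference was 1.92 ± 0.24 (SE), adjusted p = 1.11e-05. The antiproliferative genes Btg2 and Btg1 rose by 1.11 (adjusted p = 3.15e-04) and 0.92 (adjusted p = 2.15e-04), their relative Tob1 rose from 156 ± 36.9 in C to 497 ± 75.7 in D (mean ± SD, adjusted p = 1.72e-05), and the atypical cyclin Ccng2 by 1.18 (adjusted p = 1.06e-06). Foxo1 itself gave 0.05 (adjusted p = 0.868) and Foxo3 -0.01 (adjusted p = 0.983).

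The summed signal of mitosis genes in D lay above that of C arrays 3 to 5 and below that of C arrays 1 and 2. Mki67, the marker of cycling cells, had signals of 14837, 13410.3, 11586, 12236 and 11085 in C and 21278, 19250.4, 19746, 18399 and 21585 in D. All D arrays lay above all C arrays, with a difference of 0.67 ± 0.09 (SE), adjusted p = 3.11e-05. The median Mki67 signal was 12236 in C and 19746 in D, against 13718, 21707, 25524, 12367 and 17415.5 in CLP, A, B, E and F. Mature fraction F thus lay above C on this probe set. Of 43 measured mitosis genes 10 were called higher and 0 lower, by limma, with a median of 0.34, among them the motor genes Kif23 (1.66, adjusted p = 0.00467) and Cenpe (0.88, adjusted p = 0.00279) and the condensin gene Smc4 (0.42, adjusted p = 0.0036). Averaged over its probe sets, Cenpe gave 0.38 (adjusted p = 0.289). Median centring gave 6 calls, all higher, as did the spread of all 41 arrays. Leaving out 1 array at a time gave 7 to 16 called higher, the most without C array 2. The same fits gave 0 to 3 called lower, the most without C array 4, where the median was 0.16. Without C arrays 1 and 2, 31 of the 43 were called higher and 0 lower, with a median of 0.75. The summed signal was 140419 to 168987 in D, between the C arrays at 84299 to 103745 and those at 178156 and 178204. It was 99185 to 162582 in CLP, 126553 to 243803 in A and 180753 to 290204 in B. In E and F it was 54587 to 103559 and 62352.5 to 97986.

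Of 42 measured DNA replication genes 9 were called higher and 8 lower, with a median of -0.13 that turned to 0.10 without C arrays 1 and 2. Without those arrays 9 were called higher and 4 lower, without D array 1 the counts were 5 and 8, and with the spread of all 41 arrays they were 4 and 5. Rrm2, a subunit of ribonucleotide reductase, rose by 0.72 ± 0.09 (SE) (adjusted p = 1.23e-05), Mcm4, a helicase subunit, by 0.79 ± 0.12 (SE) (adjusted p = 1.27e-04) and the histone mRNA binder Slbp by 0.60 (adjusted p = 8.38e-05). Averaged over their probe sets, Rrm2 gave 0.33 (adjusted p = 0.0845) and Mcm4 0.34 (adjusted p = 0.0502). Gins2, of the same helicase, fell by 1.06 ± 0.18 (SE) (adjusted p = 3.12e-04), Rpa1, which coats single strands, fell by 0.84 ± 0.13 (SE) (adjusted p = 1.02e-04) and the ligase Lig1 fell by 0.69 ± 0.16 (SE) (adjusted p = 0.00281). Among 12 genes of homologous recombination and checkpoints, Fancd2 was called higher (1.70, adjusted p = 4.23e-04) and Brca2 (-1.29, adjusted p = 6.35e-04) and Fanca (-0.77, adjusted p = 0.043) lower. These counts were near the shares of all genes, 12.0% higher and 16.8% lower. The call of Fanca was lost without C array 1 or 2 or D array 3, 4 or 5, and its difference was -0.32 (adjusted p = 0.405) without C arrays 1 and 2. Averaging gave 0.52 (adjusted p = 0.0938) for Fancd2.

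**Figure D3:**
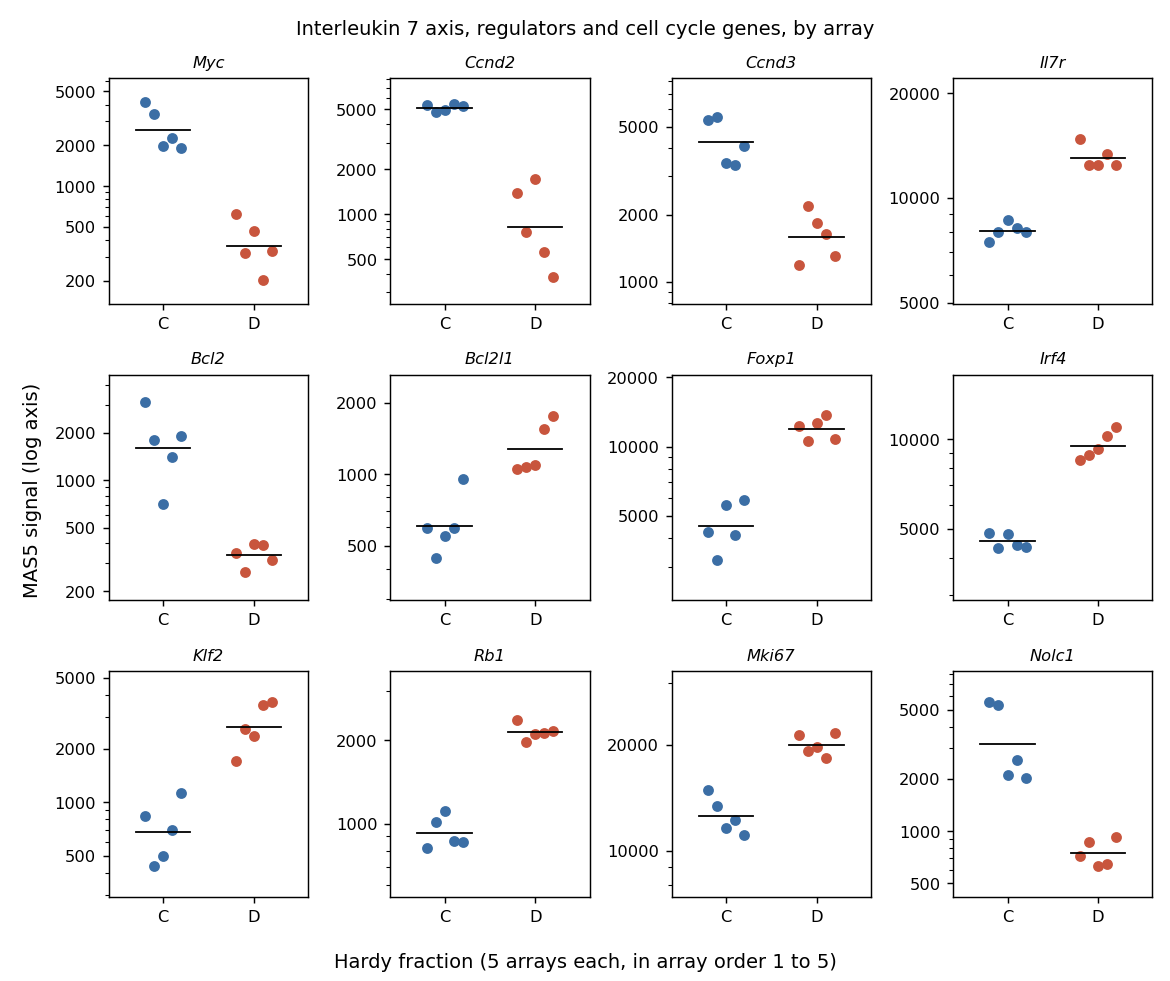
MAS5 signals (log axis) of 12 genes of the interleukin 7 axis, transcriptional control and the cell cycle on the 5 arrays of C and the 5 of D, each point 1 array and each bar the geometric mean. Myc, Ccnd2, Ccnd3, Bcl2 and Nolc1 lie lower in D, and Il7r, Foxp1, Irf4, Klf2, Rb1 and Mki67 higher, each without overlap.

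B lineage transcription factors changed in both directions, with 14 of 33 measured members called higher and 9 lower. Foxp1, a forkhead factor needed for recombination at this stage, had signals of 4257, 3227, 5606, 4136 and 5865 in C and 12332, 10566, 12654, 13715 and 10803 in D. The D arrays were all higher, the difference was 1.40 ± 0.14 (SE) (adjusted p = 1.47e-06), and 5 of its 7 other probe sets were called higher. Irf4, which with its relatives lowers the surrogate light chain and opens the light chain loci, rose from 4838, 4309, 4818, 4405 and 4352 in C to 8501, 8827, 9261, 10251 and 11015 in D (1.06 ± 0.10 (SE), adjusted p = 5.90e-07). Ikzf3, the Aiolos factor of the same step, rose by 0.74 ± 0.10 (SE) (adjusted p = 2.42e-05; adjusted p = 0.162 with the spread of all 41 arrays), with signals of 7514, 6941, 7633, 7474 and 7840.1 in C and 12386, 11018, 12838, 11361 and 15490.5 in D.

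Bach2, a repressor of the plasma cell programme, rose by 0.75 ± 0.08 (SE) (adjusted p = 4.16e-06), Fli1, an ETS factor, by 1.19 ± 0.14 (SE) (adjusted p = 9.58e-06) and Sox4, a survival factor of precursors, by 1.02 ± 0.17 (SE) (adjusted p = 2.17e-04), all without overlap. Ebf1, which sets up the B lineage, rose by 0.82 (adjusted p = 1.23e-04), the coactivator gene Pou2af1 by 0.68 (adjusted p = 2.42e-05) and the E protein gene Tcf12 by 0.86 (adjusted p = 4.28e-05). Spib, an ETS factor related to PU.1, rose by 0.94 (adjusted p = 0.00138) and Id2, an inhibitor of E proteins, by 1.34 (adjusted p = 0.00158), both with overlap. In the fit of all 41 arrays Ebf1 (adjusted p = 0.0623) and Pou2af1 (adjusted p = 0.555) were not called. None of the 4 other Ebf1 probe sets was called, and the average over its probe sets was 0.15 (adjusted p = 0.499). Averaging gave 0.17 (adjusted p = 0.497) for Sox4.

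Erg, an ETS factor of early precursors, had signals of 3153, 3724, 5615, 7748 and 6702 in C and 2382, 1877, 1324, 1551 and 1874 in D and fell by 1.51 ± 0.21 (SE), adjusted p = 4.53e-05, without overlap. Lef1, the nuclear partner of β-catenin in precursors, fell from 7274 ± 1282 in C to 2639 ± 257 in D (mean ± SD) (a difference of -1.44, adjusted p = 3.16e-07). Irf8 differed by -1.25 (adjusted p = 2.07e-05) and Mef2c, a factor that pre-B cell receptor signals activate, by -1.09 (adjusted p = 2.11e-06). Tcf3, the E2A gene, gave -1.41 (adjusted p = 3.54e-06) on its representative probe set but 0.61 on another, called higher, so its direction depends on the probe set. Pax5 fell by 0.60 ± 0.15 (SE) (adjusted p = 0.00464; adjusted p = 0.281 with the spread of all 41 arrays), with signals of 2921, 2724, 1914, 2608 and 2981 in C and 1341, 1996, 1583, 1709 and 1957 in D that overlapped. Ikzf1, the Ikaros gene, gave 0.08 (adjusted p = 0.597), or -0.28 (adjusted p = 0.0314) when averaged.

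Of 25 measured ribosome biogenesis genes 15 were called lower and 0 higher, by limma, with a median of -0.74, and without C arrays 1 and 2 the counts were 9 and 1 and the median -0.40. Nolc1, a nucleolar chaperone, had signals of 5568, 5344, 2104, 2572 and 2027 in C and 724, 868, 628, 650.1 and 920.5 in D. D was lower throughout, by a difference of -2.04 ± 0.25 (SE) (adjusted p = 1.16e-05), or -1.53 without C arrays 1 and 2, the highest on it. Fbl, the fibrillarin methylase of ribosomal RNA, fell by 1.75 ± 0.24 (SE) (adjusted p = 3.54e-05) and Gar1, of the pseudouridine complex, fell by 1.35 ± 0.18 (SE) (adjusted p = 3.14e-05).

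Nucleotide and one-carbon synthesis had 12 of 22 genes called lower and 0 higher, by limma, with a median of -0.62, and 9 lower and 1 higher without C arrays 1 and 2. Phgdh, which starts serine synthesis, had signals of 7284, 6677, 6066, 8403 and 6441 in C and 2759, 2039.8, 2471, 2268 and 2519.5 in D and fell by 1.52 ± 0.12 (SE) (adjusted p = 1.25e-07). In glycolysis 13 of 19 genes were called lower and 3 higher, with a median of -0.88. Pkm, pyruvate kinase, fell from 2752 ± 784 in C to 895 ± 273 in D (mean ± SD), a difference of -1.59 (adjusted p = 1.26e-05), and Pdk1, which keeps pyruvate out of mitochondria, differed by -1.52 (adjusted p = 5.73e-06). The exceptions were Slc2a1, a glucose transporter (0.63, adjusted p = 0.0112), Slc16a1, a lactate transporter (0.43, adjusted p = 0.00338), and Pgam1 (0.45, adjusted p = 0.0143). Averaged over its probe sets, Slc2a1 gave 0.32 (adjusted p = 0.17). Oxidative phosphorylation had 12 of 30 called lower and 3 higher, with a median of -0.23 and the largest fall in Sdhc, a complex II subunit (-1.71, adjusted p = 7.09e-07). Without C arrays 1 and 2 its counts were 6 lower and 2 higher, with 5 lower after median centring and 6 with the spread of all 41 arrays, and leaving out C array 1, C array 2 or D array 4 alone gave 7 lower. In cholesterol synthesis 10 of 19 were called lower, led by Dhcr7 (-1.33, adjusted p = 2.02e-04) and Sqle (-1.28, adjusted p = 2.49e-04), and Insig1 (0.63, adjusted p = 0.00462) and Idi1 (0.56, adjusted p = 0.015) were called higher, Idi1 at 0.089 (adjusted p = 0.74) when averaged.

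Among survival genes Bcl2l1 rose while Bcl2 fell. Bcl2l1, which encodes BCL-XL, had signals of 596, 443, 549, 595 and 956 in C and 1057, 1076, 1098, 1553 and 1748 in D. The D arrays were all higher, with a difference of 1.03 ± 0.20 (SE), adjusted p = 6.94e-04 (adjusted p = 0.0739 with the spread of all 41 arrays). Among 17 survival and death genes 6 were called higher and 2 lower, and 1 and 1 without C arrays 1 and 2 or with the spread of all 41 arrays. Leaving out C array 1, C array 2 or D array 4 alone gave 3 higher. The proapoptotic gene Bcl2l11 rose by 0.54 (adjusted p = 0.0104) with all arrays and by 0.33 (adjusted p = 0.0844) without C arrays 1 and 2, and averaged over its probe sets it gave 0.055 (adjusted p = 0.801). Of 11 p53 targets 1 was called higher and 2 lower, near the shares of all genes (12.0% higher and 16.8% lower). The falls were Aen (-1.15, adjusted p = 4.79e-05), at -0.33 (adjusted p = 0.102) when averaged, and Cdkn1a. In the NF-κB list 3 of 14 were called higher and 1 lower, against 12.0% higher and 16.8% lower of all genes. The list median was 0.22 with all arrays and changed sign without C arrays 1 and 2. Nfkbia, the inhibitor that NF-κB itself induces, rose from 5326, 5046, 5728, 6130.4 and 4480.4 in C to 12527, 11465, 11122, 13186 and 13078 in D (1.20 ± 0.10 (SE), adjusted p = 2.60e-07), and the subunit gene Rel by 1.27 ± 0.17 (SE) (adjusted p = 2.12e-05).

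Of 24 surface genes of mature B cells, 3 were called higher and 3 lower, near the shares of all genes (12.0% higher and 16.8% lower). Cd55, a complement regulator, had signals of 660.2, 838, 576, 1962 and 1534 in C and 3619, 3801, 4372, 3866 and 5726 in D and rose by 2.05 ± 0.27 (SE) (adjusted p = 2.54e-05). Tnfrsf13c, the BAFF receptor, rose by 0.89 ± 0.11 (SE) (adjusted p = 1.15e-05) and Cd1d1, which presents lipids, by 1.16 ± 0.20 (SE) (adjusted p = 2.22e-04), both without overlap. Averaged over its probe sets, Cd1d1 gave 0.37 (adjusted p = 0.202). Ly86 (-1.10, adjusted p = 8.93e-05), Cd52 (-0.96, adjusted p = 8.52e-04) and Icosl (-1.39, adjusted p = 0.00457) were called lower, the last at -1.03 (adjusted p = 0.0565) without C arrays 1 and 2 and -0.48 (adjusted p = 0.194) when averaged.

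MHC class II genes were called lower in 5 of 9 cases and higher in 0, by limma, with a median of -0.85. H2-Eb1 had signals of 1009.6, 724, 466, 1071 and 1294 in C and 38.6, 112, 31.0, 382 and 274 in D, with a difference of -2.56 ± 0.47 (SE) (adjusted p = 0.00106), and H2-Ab1 gave -0.99 (adjusted p = 4.88e-04). Their summed signals, 9311 to 16780 in C and 7381 to 11198 in D, overlapped.

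Of 15 homing and adhesion genes 3 were called higher and 8 lower. Cxcr4, the receptor that holds precursors in bone marrow niches, rose from 8969, 7841, 9707, 11638 and 10023 in C to 14781, 13489.7, 14584, 16088 and 15812 in D (0.64 ± 0.10 (SE), adjusted p = 1.32e-04; adjusted p = 0.0675 with the spread of all 41 arrays). Itgb2, the β2 integrin chain, fell by 1.66 ± 0.15 (SE) (adjusted p = 3.88e-07), from 2919 ± 423 in C to 906 ± 153 in D (mean ± SD), and Cxcr5, a follicle homing receptor, had signals of 58.3 to 353 in C and 3.30 to 18.1 in D (-2.21, adjusted p = 1.30e-04). S1pr1, the exit receptor, rose by 0.97 (adjusted p = 0.0179), a call lost without D array 4 or D array 5, and at 0.55 (adjusted p = 0.161) without C arrays 1 and 2.

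Immediate early genes, which cells induce within minutes of stimulation or handling, were higher in D. Fos had signals of 1433, 655, 499.6, 372 and 585 in C and 6924, 6521, 6345, 8064 and 8057 in D. The lowest D array was far above the highest C array, and the difference was 3.42 ± 0.24 (SE), adjusted p = 4.64e-08. Fosb had signals of 108, 11.3, 43.1, 47.3 and 26.4 in C and 951, 1015, 700.2, 1180.2 and 794 in D and rose by 3.69 ± 0.27 (SE) (adjusted p = 6.18e-08). Of 21 measured members 14 were called higher and 2 lower, with a median of 0.96. Cd69 rose by 2.22 (adjusted p = 3.22e-06), Klf6 by 1.56 (adjusted p = 2.49e-07), Egr1 by 1.08 (adjusted p = 6.35e-04) and Jun by 0.96 (adjusted p = 4.09e-04), whereas Nr4a1 gave -0.65 (adjusted p = 0.0887) and Fosl2 fell by 1.30 (adjusted p = 7.01e-04). Fraction C had the lowest median Fos signal of the 7 populations, 585, against 6924 in D, 5161 in B, 1776 in CLP and 9806, 9133 and 7949.9 in A, E and F. The labels give no handling times, and the part of handling in these values was not tested.

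Genes induced by interferon were lower in D. Of 15 measured members 10 were called lower and 0 higher, by limma, with a median of -1.54, and their summed signal was 6907 to 10775 in C and 2584 to 3798 in D. Many promoters of this family carry the paired GAAA core that interferon response factors bind, so upstream stretches of 5 called members that hold a pair are shown. They come from RefSeq on GRCm38.p6, 5′ to 3′ on the strand of the gene and ending at or before the start site, with each pair of GAAA cores 2 bases apart, or of TTTC where the pair lies on the other strand, in capitals.
Ifit1 (chr19:34640760-34640859, plus strand): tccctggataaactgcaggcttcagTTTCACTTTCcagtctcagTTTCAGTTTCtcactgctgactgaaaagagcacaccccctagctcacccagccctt
Oas1a (chr5:120907526-120907570, minus strand): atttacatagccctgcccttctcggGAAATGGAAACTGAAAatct
Rsad2 (chr12:26456498-26456597, minus strand): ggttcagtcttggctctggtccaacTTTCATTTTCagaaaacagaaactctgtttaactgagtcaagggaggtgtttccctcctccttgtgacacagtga
Bst2 (chr8:71537528-71537627, minus strand): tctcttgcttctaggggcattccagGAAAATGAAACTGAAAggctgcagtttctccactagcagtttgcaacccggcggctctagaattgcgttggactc
Gbp2 (chr3:142620579-142620662, plus strand): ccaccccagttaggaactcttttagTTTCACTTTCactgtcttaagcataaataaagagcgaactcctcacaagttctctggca

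In promoter stretches from 250 bases before to 50 after a start site, this motif (GAAA, any 2 bases, GAAA), searched on both strands, was found in 8 of the 12 interferon genes that have an entry (66.7%) and in 523 of all 14368 genes with one (3.64%). Of those 8, 6 were called lower, and Ifit3 (-0.86, adjusted p = 0.0538) and Stat2 (0.51, adjusted p = 0.129) were not called. Of the 4 without it, Ifit2 and Oasl2 were called lower. A match is a description of the letters, not a site.

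Oas1a, whose enzyme activates an antiviral nuclease, had signals of 770.3, 624, 1196, 1222 and 1201 in C and 129, 221, 234, 138 and 198 in D. It fell by 2.24 ± 0.22 (SE), adjusted p = 1.04e-06, with no overlap. Ifit1, which binds foreign RNA, had signals of 262, 188, 590.2, 710.1 and 294 in C and 63.7, 6.10, 41.9, 75.0 and 6.60 in D and fell by 2.62 ± 0.37 (SE), adjusted p = 4.10e-05. Rsad2 gave -2.61 (adjusted p = 0.00204), Gbp2, a GTPase, -2.22 (adjusted p = 1.19e-04) and Bst2, the membrane tether of budding viruses, -1.54 (adjusted p = 2.73e-05). Ifitm3, an antiviral membrane protein among the genes that fell furthest, had signals of 3144, 2519.8, 3047, 3431 and 2612 in C and 158, 353, 159.8, 278 and 216 in D and fell by 3.54 ± 0.19 (SE), adjusted p = 3.22e-09. The median Oas1a signal was 1196 in C and 567, 240.3, 314, 198, 276 and 223 in CLP, A, B, D, E and F.

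Markers of other blood cells also separated the fractions. All 15 measured neutrophil genes were called lower in D, with a median of -1.88, and their summed signal was 65098 to 92283 in C and 19911 to 27048 in D. Lyz2, lysozyme, had signals of 9382, 8939, 5817, 7108 and 5960.5 in C and 1037, 1429.7, 1431, 1207 and 1022 in D (-2.56 ± 0.15 (SE), adjusted p = 8.68e-09), and S100a9, a calcium binder abundant in neutrophils, 22822, 18997, 21693, 21141 and 21619 in C and 8208, 8439.8, 10191, 9785 and 8168 in D (-1.25 ± 0.09 (SE), adjusted p = 6.18e-08). Only Mmp9 (0.00797) among the 15 had an adjusted p above 0.001. In D, 2 of the 15 lay below the median signal of the array on every array, and in C none did. Of 13 monocyte and macrophage genes 7 were called lower, and their sum was 4160 to 7705 in C and 584 to 1277 in D, with 10 of the 13 below the array median on every D array.

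Sums of the other lists overlapped between the fractions. For 15 natural killer (NK) and T cell genes, 9 of them called lower and Cd247 higher (0.62, adjusted p = 0.0018, or 0.14 (adjusted p = 0.515) when averaged), the sum was 6225 to 12788 in C and 5688 to 7678 in D, with 12 of the 15 below the array median on every D array. The 10 erythroid genes summed to 12202 to 21779 in C and 14329 to 15911 in D, with Tfrc, the transferrin receptor of dividing cells, called higher (1.00, adjusted p = 5.83e-07) and Car2 (-1.90, adjusted p = 2.36e-06), Alas2 and Slc4a1 called lower. Plasmacytoid dendritic cell genes summed to 6993 to 11448 in C and 7893 to 10234 in D, with 5 of 11 called lower and 1 higher. Plasma cell genes summed to 12395 to 39090 in C and 14632 to 18123 in D. Of these 10 genes 3 were called lower and 2 higher, with a median of 0.05. Megakaryocyte genes, at 496 to 1398 in C and 1234 to 2590 in D, had 1 of 7 called higher and none lower, by limma. Of all genes 12.0% were called higher and 16.8% lower. The part of other cell types in the falls described here was not tested.

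**Figure D4:**
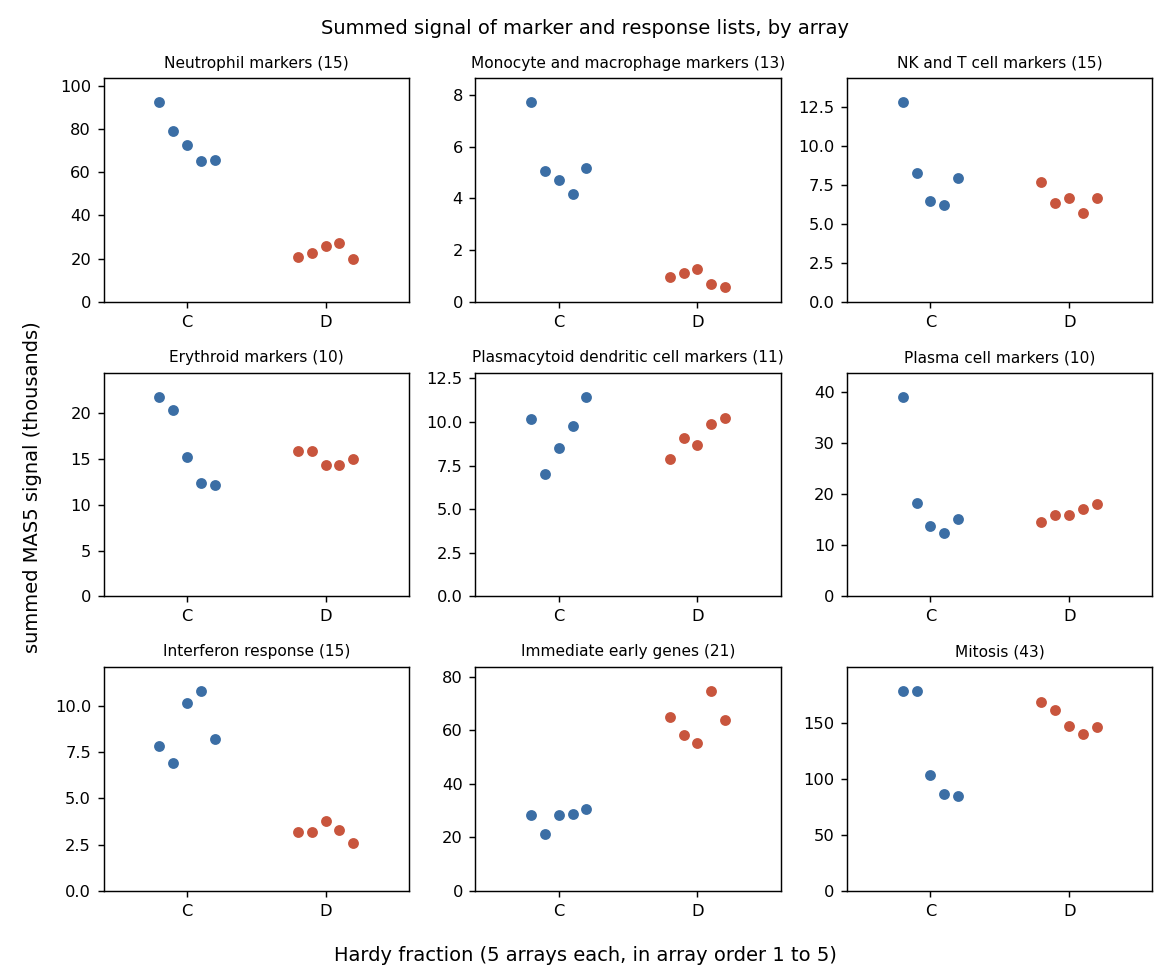
Summed MAS5 signal, divided by 1000, of 6 marker lists of other cell types and of the interferon, immediate early and mitosis lists on each of the 5 arrays of C and of D, with the number of genes summed in brackets. Neutrophil, monocyte, interferon and immediate early sums separate the fractions, and C arrays 1 and 2 stand above C arrays 3 to 5 for mitosis.

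The 15 largest rises were led by Stfa3 and Reln. Stfa3, a stefin that inhibits cysteine proteases, had signals of 77.8, 61.7, 84.5, 28.5 and 103 in C and 2665, 2506, 3308, 2139 and 1832 in D and rose by 4.63 ± 0.22 (SE), adjusted p = 1.47e-09. Reln, the secreted glycoprotein reelin best known from the developing brain, had signals of 279, 81.9, 229, 273 and 244 in C and 4587, 5082, 4391, 5553 and 6631 in D and rose by 4.45 ± 0.23 (SE), adjusted p = 1.77e-09; its other probe set was also called higher. For both, every D array lay far above every C array. Rbm24, an RNA-binding protein of muscle, rose from 205, 186, 349, 215 and 341 in C to 1724, 1830.4, 1764, 2166 and 1511 in D (2.68 ± 0.18 (SE), adjusted p = 3.69e-08), and Ret, a receptor tyrosine kinase, from 21.8, 10.6, 148, 90.6 and 86.8 to 568, 339, 309, 364 and 436 (2.24 ± 0.34 (SE), adjusted p = 7.95e-05).

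Both Reln and Rbm24 stood higher in D than in every other population. The median Reln signal was 5082 in D, against 244 in C, 1418 in E and 846 in F, and the lowest D array exceeded the highest array of each other population, the nearest being 3535 on an array of B. The same held for Rbm24, whose median was 1764 in D and at most 215 elsewhere. Stfa3 instead stayed high, with medians of 2506 in D, 3240.3 in E and 1305 in F, and was also high in A (1113). Enpep and Heyl, a target of Notch signalling, peaked in C, where Heyl had a median of 2317 against 98.1 in D and 77.6 in B. These levels are given as a description, with no test between populations.

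The other large rises were Fosb, Fos and Klf4 of the immediate early list, Trim72 (2.99, adjusted p = 7.88e-06), Tnn (2.96, adjusted p = 2.34e-07), Zcchc14 (2.77, adjusted p = 4.71e-07), Htra4 (2.64, adjusted p = 1.14e-05), Yes1, a Src family kinase (2.45, adjusted p = 2.83e-06), Slc10a1, a bile acid transporter (2.25, adjusted p = 2.73e-06), Dnajb9, a chaperone of the endoplasmic reticulum (2.25, adjusted p = 1.49e-07), and Rgs16, which limits signals of G protein-coupled receptors (2.24, adjusted p = 4.06e-05). Dnajb9 had signals of 810, 696, 1322, 1115 and 1062 in C and 5698, 4291, 4464, 6164 and 3604 in D. The fractions did not overlap for any of the 15, since the choice of the largest changes required it.

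The largest fall was that of Kbtbd11, whose protein has a kelch domain, with signals of 1872, 1289, 1425, 3635 and 4219 in C and 53.1, 26.1, 37.0, 54.6 and 35.2 in D and a difference of -4.96 ± 0.29 (SE), adjusted p = 7.05e-09. Prkch, a protein kinase C, had signals of 666, 601, 708, 1575 and 1553 in C and 61.5, 19.0, 21.4, 52.3 and 97.0 in D and fell by 3.64 ± 0.31 (SE), adjusted p = 3.09e-07, and Heyl had signals of 779, 557, 2317, 2941 and 2429 in C and 81.6, 98.9, 130, 75.0 and 98.1 in D and fell by 3.58 ± 0.36 (SE), adjusted p = 1.97e-06. Ckap4, a protein of the endoplasmic reticulum, fell from 3202, 2608, 2679.8, 3294 and 2496 in C to 285, 185, 353, 196 and 215 in D (-3.40 ± 0.17 (SE), adjusted p = 1.77e-09), and its 3 other probe sets were called lower. Tlr4, the receptor for bacterial lipopolysaccharide, differed by -3.25 (adjusted p = 5.00e-07), Rab6b, a small GTPase, by -3.58 (adjusted p = 3.53e-07), Ttll11 by -3.45 (adjusted p = 1.46e-07), Myl10 by -3.41 (adjusted p = 1.67e-06), Fxyd5 by -3.28 (adjusted p = 1.84e-08) and S100a4 by -3.48 (adjusted p = 2.04e-06).

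Among the 15 largest falls were also defining genes of other cells. Gzma, a granzyme of killer cells, had signals of 3932, 1250.1, 342, 854 and 915 in C and 5.30, 3.70, 94.2, 8.40 and 3.00 in D (-4.54 ± 0.51 (SE), adjusted p = 1.14e-05). Mpeg1, of macrophages, gave -3.72 (adjusted p = 6.18e-08), Siglech, of plasmacytoid dendritic cells, -3.55 (adjusted p = 3.58e-06), and Jchain, of plasma cells, -3.90 (adjusted p = 0.00147). All 4 were highest on C array 1, and the marker sums of these cell types are given with the marker lists. For Jchain the C signals ran from 236 to 6528.

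**Figure D5:**
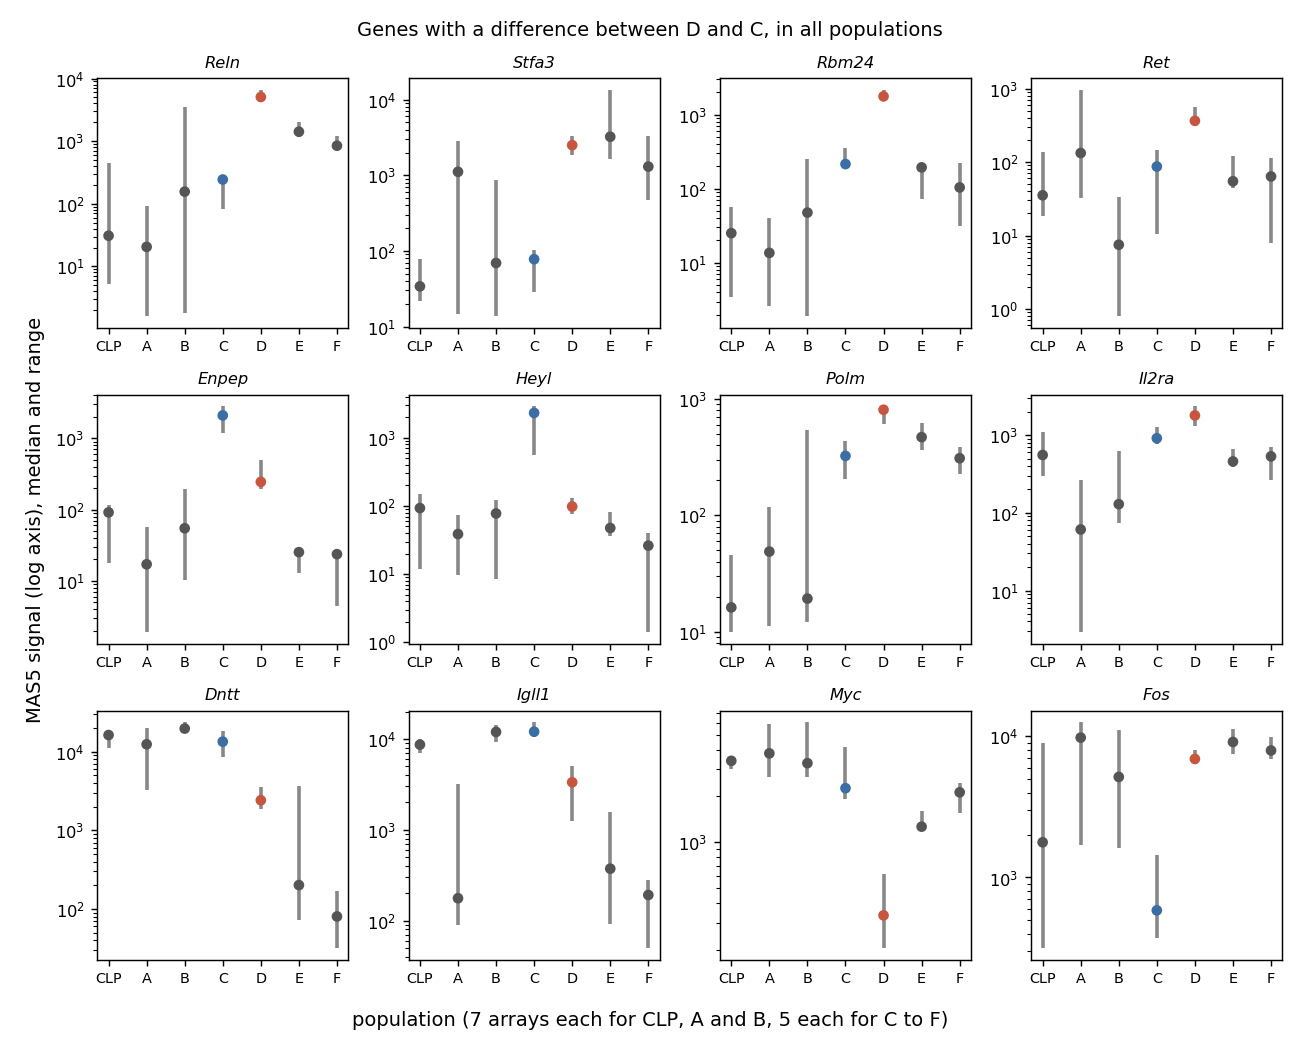
MAS5 signals (log axis) of 12 genes in the 7 populations of the series, with the median as a point and the lowest to highest array as a line, over 7 arrays each of CLP, A and B and 5 each of C to F. C is blue and D red. Reln and Rbm24 are highest in D, Enpep and Heyl in C, Myc is lowest in D and Fos lowest in C.

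Genes known to be altered in hypodiploid acute lymphoblastic leukaemia, a list of 14 measured members, had 4 called higher and 4 lower. Besides Rb1, Ikzf3 and Pax5, the calls were Crebbp, a histone acetylase (0.56, adjusted p = 0.00158), Map2k1 (0.37, adjusted p = 0.0466), Ikzf2, the Helios gene (-1.29, adjusted p = 0.0031), Pag1 (-0.85, adjusted p = 4.86e-04) and Ptpn11, a phosphatase of RAS signalling (-0.89, adjusted p = 8.10e-05). Other probe sets of Crebbp and Ptpn11 were called the other way, and averaged Ptpn11 gave -0.091 (adjusted p = 0.648). Of 23 chromatin and DNA methylation genes 6 were called higher and 2 lower, including the methylase gene Suv39h2 (1.00, adjusted p = 0.00121), the Polycomb gene Eed (0.50, adjusted p = 0.00189) and the deacetylase gene Hdac1 (-0.66, adjusted p = 1.56e-04).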

How the data were processed

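The deposited values are MAS5 signals, a linear intensity per probe set made by the authors, per the submitters' processing notes, from RNA extracted with Arcturus PicoPure and amplified with the NuGEN Ovation Pico system, per the labels. The version of MAS5, array batches and a genome build were not given in the sources used here. Probe sets were named from the platform annotation supplied for these arrays: 932 carried several symbols, 9160 were not listed and 64 were controls, and none of these was tested. Signals were kept as deposited, since their 2% trimmed means were already equal between arrays, and log2(signal + 32) was fitted with limma 3.58.1 (lmFit, eBayes with trend and robust settings, R 4.3.3) over the 10 arrays, with no filter and no covariate. A gene with several probe sets was represented by the one with the highest mean. The number of arrays limits the precision. In simulated data with 34945 probe sets, 50 were changed at each size, all with higher mean signals, and the rest were left unchanged. The test recovered 6, 33, 50 and 50 of 50 at 0.5, 1, 2 and 3 log2 units, and 9 of its 148 calls were unchanged probe sets. So few changes make the adjustment stricter than in the real fit, which called 28.1% of probe sets. These recoveries therefore do not measure how many real changes of 0.5 or 1 unit were found.

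Genes were named by rule: the 15 largest rises and falls among called genes whose arrays did not overlap, all members of 7 lists, and up to 3 called members per direction with the smallest p of each other list, 233 genes in all. A few further members of the lists are also given. Of 629 list symbols 577 were measured. Members, lists and tests were chosen with earlier results of these data known. Tables were made with pandas 2.3.3.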

Additional observations from a re-analysis of the deposited data

Results flagged for a closer look

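For each of the 233 named genes, the 5 arrays of each fraction were searched for 1 array far from the others, by Dixon's test at its 95% limit. Of 466 groups 18 were marked, fewer than the 1 in 20 or so that chance alone would mark in independent groups. These groups share arrays, so that rate does not tell whether a single array is odd. D array 5 was marked most often. None of these values was left out of the tests.

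D array 5 was the odd one for Slc10a1 (693 against 307 to 354), Jak3 (32.8 against 2.20 to 3.40), Socs1 (14.2 against 5.90 to 7.60), Mxd3 (2206.5 against 3131 to 3464), Idi1 (1509.7 against 2463 to 2806), Bcl2l11 (3795 against 5036 to 5375), Bid (187 against 343 to 419) and Slc4a1 (718 against 1047 to 1113). C array 2 was low for Reln (81.9 against 229 to 279), Fyn (937 against 1163 to 1263), Uqcrb (7334 against 8796 to 9209) and Pacsin1 (86.3 against 127 to 144). C array 3 was high for Htra4 (151 against 22.1 to 42.5) and Cd163 (467 against 226 to 239). D array 3 was high for Gzma (94.2 against 3.00 to 8.40) and low for Cdkn2c (2011 against 2553 to 2717). D array 4 was high for Cxcr5 (18.1 against 3.30 to 5.70), and D array 2 was low for Cd24a (20292 against 22962 to 24139). The marked signals of Jak3, Socs1, Gzma and Cxcr5 were below the median signals of the D arrays, 111.7 to 127.5.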

How the results depend on the processing

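Of the settings run, 2 moved counts of calls by over 1.5 times. With the spread of all 41 arrays, 1764 probe sets were called higher and 2410 lower (852 and 1451 genes), and with the probe sets in the top 25% by mean, 2407 and 2336 (1380 and 1510 genes), fewer being tested. Leaving out 1 array at a time gave 3779 to 5271 probe sets higher and 4642 to 5313 lower (1829 to 2655 and 2677 to 3054 genes). C arrays 1 and 2 left out together, chosen after seeing the data, gave 3486 and 4718 (1732 and 2702 genes). A lower and a higher pseudocount, the top 50% by mean, quantile normalisation, median centring, array weights, no trend or robust setting and averaging each gene's probe sets stayed within 1.5 times. The share of calls that were higher was 41.7% as reported, 41.1% with quantile normalisation and 42.4% with median centring, which shifted the median of all genes by under 0.1.

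Among the 189 called genes of the 233 named, 52 were not called with all 41 arrays. Without some single array 14 lost the call (Bid, Cox5a, Egr3, Ets1, Fanca, Klf3, Mcl1, Prdm1, Rbl2, S1pr1, Tet3, Trp53inp1, Uqcrb and Xrcc6). The call was lost by 12 under quantile normalisation, 13 under median centring and 11 with no trend or robust setting. Without C arrays 1 and 2, 15 lost it, 5 others gained one in the same direction, and Rag2 gained one in the opposite direction (adjusted p = 0.00501). Averaging probe sets, possible for genes with several, ended 27 calls and gave 3 new ones among genes that kept their direction. It also turned the direction of Ighm (-1.60, adjusted p = 0.0239), Ikzf1 (-0.28, adjusted p = 0.0314) and Aff3 (-0.42, adjusted p = 0.0461), which gained a call. Prkcb (-0.064), Ets1 (-0.036) and Rbl2 (-0.085) turned and lost theirs. The cause was not tested. Without C arrays 1 and 2, Rag2 turned to -0.47, and list medians turned for recombination (-0.0079), DNA replication (0.10), homologous recombination (0.17) and NF-κB (-0.0060).

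Replicate numbers did not pair the samples: the correlations of same-numbered deviations were -0.0020 to 0.069. A fit with the number as a block called 4278 probe sets higher and 5179 lower (2089 and 2991 genes), and 4 named genes lost their call. Low signals, batches not given in the labels and the unequal C arrays limit what these 10 arrays resolve.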
